A study of Saccharomyces cerevisiae with 40 samples.

Results

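Pip2 binding was compared between nitrogen limitation and glucose limitation. The members were all genes of the Pip2 table that carried a binding value in either condition, 155 of the 7125 genes named there. The values came from ChIP-exo, in which DNA crosslinked to a tagged transcription factor (TF) is immunoprecipitated and trimmed by an exonuclease, so that the border of each bound site is read almost to the base. The study mapped 5 TFs (Ino2, Ino4, Hap1, Oaf1, and Pip2) in 4 chemostat conditions with 40 libraries, 2 for each TF and condition. All Pip2 libraries came from the strain PIP2-TAP, a CEN.PK 113-5D derivative in which Pip2 carries a CBP-ProtA tag at its C terminus, so the tagged protein was present in every group and no untagged control was used here. The nitrogen-limited cultures (N-lim) received 6% (w/v) glucose and the glucose-limited cultures (Glu-lim) received 0.75% (w/v) glucose. The 2 libraries of a condition had been pooled into 1 value for each gene, log2(S/N), the log2 of the signal over the noise at the highest event assigned to that gene. There was therefore no spread between replicates, no test was possible, and read depth is unknown from these values. Each comparison below is a description.

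Pip2 is a zinc cluster TF that works as a heterodimer with Oaf1. The pair is best known for inducing the genes of peroxisomal fatty acid oxidation when yeast grows on oleate. It binds the oleate response element, which consists of 2 CGG triplets that face each other across a short gap. In baker's yeast, fatty acid oxidation takes place in the peroxisome alone, and its product acetyl-CoA leaves as carnitine esters or through the glyoxylate cycle.

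At N-lim 54 genes were listed for Pip2, 0.758% of all genes, and at Glu-lim 124 genes were listed, 1.74% of all genes. The deposited list holds events above a log2(S/N) of 1 at up to 1200 bp and assigns them to genes beside them, so a gene with no value is not a gene with a measured absence of binding. An event close to it can also be listed for its neighbours alone. The lowest value listed was 1.21 at N-lim and 1.09 at Glu-lim. Both lists held 23 genes, 42.6% of the N-lim list (exact 95% binomial interval 29.2% to 56.8%) and 18.5% of the Glu-lim list (12.1% to 26.5%). Intervals of this kind cover counting error only, and genes that share an event are not independent. Since 1 event can be listed for several neighbouring genes, the entries came from 35 distinct events at N-lim and 77 at Glu-lim.

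The sequences under the events are shown first because they separate the sites found in both conditions from those found at N-lim alone. The element was searched as a CGGNNNTNA half-site, then 8 to 12 bases of any kind, then CCG, on both strands and wholly within 50 bp of an event. These elements lay at events that were found in both conditions. Each is written 5′ to 3′ on the strand that matched, from the R64 reference genome, with the triplets and the fixed T and A of the half-site in capitals.
EEB1, chrXVI:369620-369642, minus strand: CGGttaTtAttactcaatttCCG
YNL144C, chrXIV:355553-355573, minus strand: CGGgaaTaAgatgcagtaCCG
VHR1, chrIX:249109-249130, minus strand: CGGataTaAgcggatcccaCCG
POX1, chrVII:107883-107905, plus strand: CGGtcaTtAgcggctaatagCCG
VHS1, chrIV:955504-955523, minus strand: CGGggtTaAgtggcaagCCG
PUT1, chrXII:424227-424248, plus strand: CGGagaTaAgacccttgccCCG

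A second set comes from genes listed for Pip2 at Glu-lim and not at N-lim, or, for FOX2, at another place of the promoter. The FAA2 promoter also held an N-lim event, which was listed for HEM14 only. It is shown because these genes serve fatty acid oxidation, glutamate synthesis and inositol synthesis, and only genes with an element are printed. IDP3, ANT1 and CTA1, also of fatty acid oxidation, had no element within 50 bp of their Glu-lim event. Of the 67 Glu-lim events with no N-lim event within 50 bp, 16 had one, 23.9%.
POT1, chrIX:41610-41632, plus strand: CGGtgtTaAtactattatccCCG
FAA2, chrV:184355-184377, minus strand: CGGcgtTaAagactgacggtCCG
MDH3, chrIV:316708-316730, minus strand: CGGagtTaAcgccggtccggCCG
CRC1, chrXV:514584-514606, plus strand: CGGataTtAggagcagtaacCCG
FOX2, chrXI:457337-457358, plus strand: CGGactTaAaactaggcttCCG
GLT1, chrIV:156127-156147, minus strand: CGGtttTaAtgcgtcaatCCG
INO1, chrX:136346-136367, plus strand: CGGtgaTaAagagctcgttCCG

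Such an element stood within 50 bp of 8 of the 35 N-lim events and 24 of the 77 Glu-lim events, 22.9% and 31.2%. Of all windows of 101 bp centred 101 to 1200 bp upstream of protein-coding genes, 0.356% held one. The half-site CGGNNNTNA alone was within 20 bp of 9 N-lim events, 25.7%, and of 21 Glu-lim events, 27.3%, against 3.4% of the upstream windows of 41 bp. The form CGGNNNTAA, contained in it, was within 20 bp of 8 N-lim and 17 Glu-lim events, against 1% of the windows. The reversed triplet form CCGNNNTA was within 20 bp of 1 N-lim event and 7 Glu-lim events, 2.86% and 9.09%, against 2.79% of the windows. The half-site shares of the 2 conditions overlapped in their intervals, 12.5% to 43.3% at N-lim and 17.7% to 38.6% at Glu-lim.

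**Figure D1:**
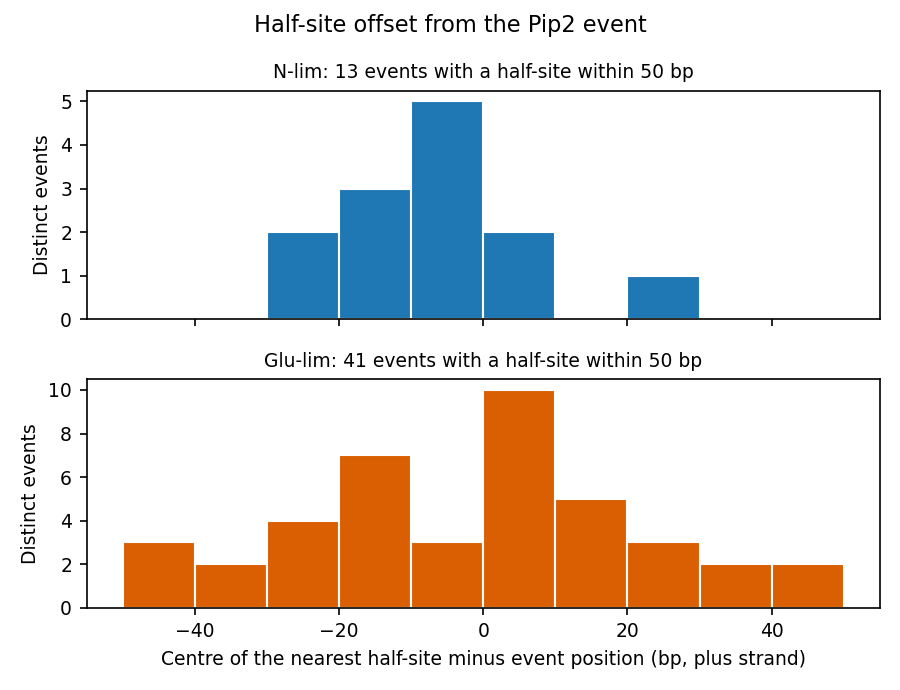
Position of the nearest CGGNNNTNA half-site relative to each Pip2 event with one within 50 bp, as distinct events per bin; the horizontal axis is the centre of the half-site minus the event position in bp on the plus strand. At N-lim 12 of 13 nearest half-sites were centred within 25 bp of the event, and at Glu-lim 30 of 41.

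Among events with a half-site within 50 bp, the median distance was shorter at N-lim. The median distance from the event to the centre of the nearest half-site was 7 bp over 13 events at N-lim and 16 bp over 41 events at Glu-lim. The 9 bases of the half-site covered the event itself at 6 of these 13 events and 6 of these 41.

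Entries lying before a gene start were kept apart from entries measured past its 3′ end. The deposited distance could be matched to reference coordinates within 1 bp for 163 of the 165 entries whose gene has coordinates, and this decided the place. At N-lim 21 of 54 entries were upstream, 38.9% (25.9% to 53.1%), and 27 were measured from the 3′ end, 50% (36.1% to 63.9%). At Glu-lim 76 of 124 entries were upstream, 61.3% (52.1% to 69.9%), and 39 were measured from the 3′ end, 31.5% (23.4% to 40.4%). Genes with an upstream entry made up 0.295% of all genes at N-lim and 1.07% at Glu-lim. Of the 155 members, 85 had an upstream entry in at least 1 condition and 57 had 3′ end entries only. The other 13 could not be placed: 12 are transfer RNA genes or open reading frames without coordinates under that name, and 1 is the ribosomal repeat gene RDN37-2, whose deposited distance matched neither end.

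**Figure D2:**
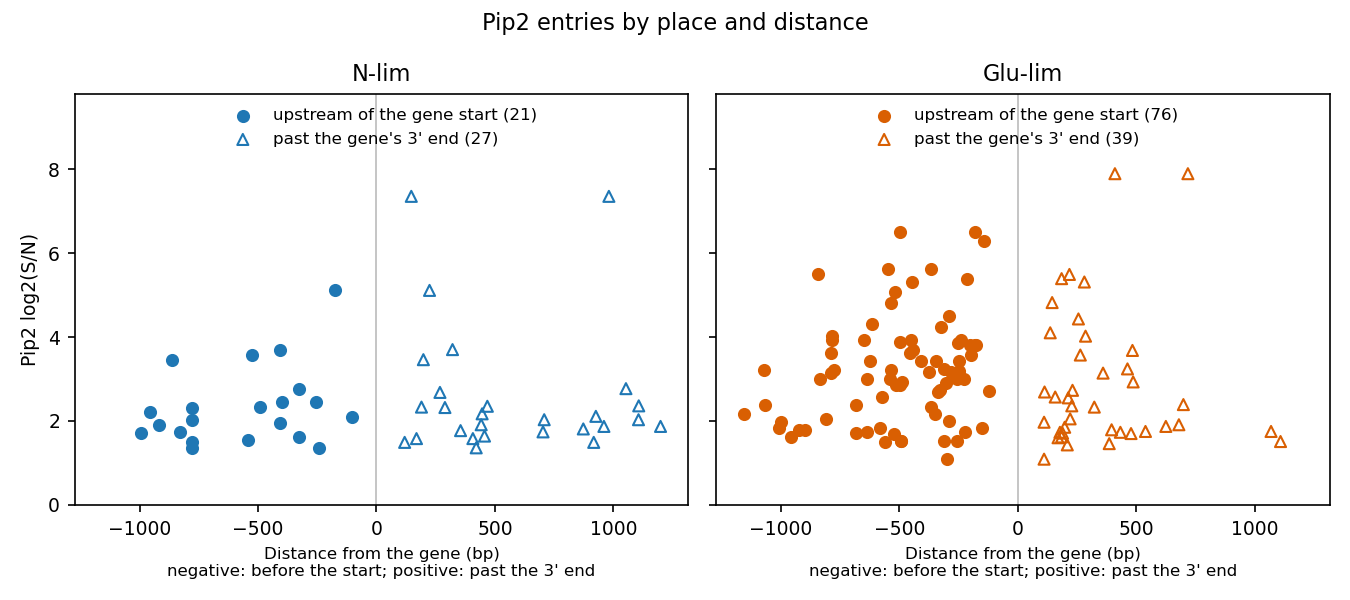
Pip2 log2(S/N) of each placed entry against its distance from the gene in bp, at N-lim (left) and Glu-lim (right); filled circles are upstream of the gene start and open triangles lie past the 3′ end. The 76 upstream entries at Glu-lim had a median of 3.15 and the 21 at N-lim a median of 2.10; the point at 6.29 at Glu-lim is the ELO1 entry, whose record is described in the text.

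Upstream entries were more numerous and higher at Glu-lim. Their median log2(S/N) was 2.10 at N-lim, with a range of 1.35 to 5.11, and 3.15 at Glu-lim, with a range of 1.09 to 6.50. The 3′ end entries had medians of 2.03 at N-lim and 2.36 at Glu-lim. The distances of upstream entries were similar in the 2 conditions. Within 600 bp of the start were 53 of 76 at Glu-lim, 69.7% (58.1% to 79.8%), and 12 of 21 at N-lim, 57.1% (34% to 78.2%), with overlapping intervals. The median distances were 490.5 bp at Glu-lim and 527 bp at N-lim.

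The genes with an upstream entry in both conditions numbered 12, 57.1% of the upstream genes at N-lim and 15.8% of those at Glu-lim. In 11 of the 12 the value was higher at Glu-lim. The median difference, Glu-lim minus N-lim, was 1.66 on the log2 scale, a 3.15-fold ratio, with a range of -0.59 to 2.57. The 12 genes shared 10 distinct N-lim events, and the median over these events was also 1.66. How much of this difference belongs to the pooled libraries themselves cannot be told from 1 value per condition.

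The 12 genes included 3 of fatty acid oxidation, all with the higher value at Glu-lim. FOX2, the multifunctional enzyme of peroxisomal beta-oxidation, had 2.10 at N-lim and 4.49 at Glu-lim. The Glu-lim value is identical in every decimal to the Pip2 value of ethanol limitation at the same base, as described at the end. Its highest event was 104 bp from the start at N-lim and 291 bp at Glu-lim, 187 bp apart, so these values belong to different places of the promoter. POX1, the acyl-CoA oxidase of the pathway's first step, had 2.44 at N-lim and 3.16 at Glu-lim, and the divergent neighbour CHC1 (clathrin heavy chain) was listed for the same events. CAT2, the carnitine acetyltransferase that moves acetyl groups out of the peroxisome, had the largest difference, from 1.35 at N-lim to 3.92 at Glu-lim. It shared that event with RRN11, a subunit of the RNA polymerase I core factor, and the 2 event positions were 2 bp apart.

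EEB1 stood apart by its high value in both conditions. It encodes the acyltransferase that makes ethyl esters of medium-chain fatty acids, and its promoter had the highest upstream value at N-lim. Its log2(S/N) was 5.11 at N-lim and 5.39 at Glu-lim, a difference of 0.28, with the events 39 bp apart and 175 and 214 bp from the start. SEC62, a subunit of the protein translocation machinery, lies on the other side and was listed for the same events from its 3′ end.

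At 5 further genes the value was higher at Glu-lim by more than 1.5 on the log2 scale. VHR1, an activator of biotin genes, had 3.46 at N-lim and 5.49 at Glu-lim. VHS1, a protein kinase, had 2.33 and 4.82. The uncharacterized genes YGR035C, YNL144C and YMR102C had 3.70, 3.56 and 2.32 at N-lim and 5.31, 5.07 and 4.02 at Glu-lim. PUT1, the proline oxidase of proline use as a nitrogen source, was the exception. Its value was 2.22 at N-lim and 1.63 at Glu-lim, a difference of -0.59, with events 2 bp apart inside the coding region of the neighbouring gene RRN5.

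**Figure D3:**
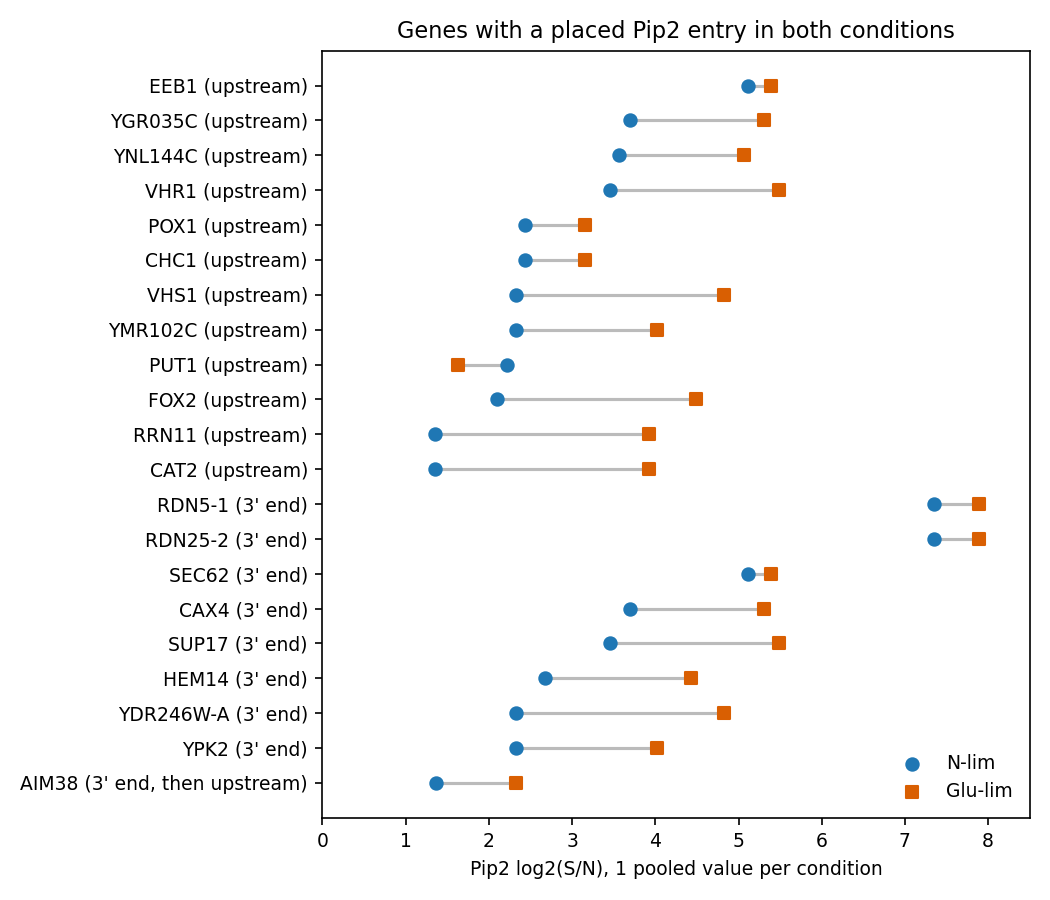
Pip2 log2(S/N) at N-lim (circles) and Glu-lim (squares) for the 21 genes with a placed entry in both conditions; 12 genes are upstream in both, 8 are measured from the 3′ end in both, and AIM38 changes place. Each point is 1 pooled value without error. PUT1 alone had the lower value at Glu-lim.

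The 8 genes measured from the 3′ end in both conditions were all higher at Glu-lim, with a median difference of 1.66. Most of them were neighbours of the promoters already named, so they add no sites: SEC62 (5.11 and 5.39), CAX4, which shares its event with YGR035C (3.70 and 5.31), the transfer RNA gene SUP17, which shares that of VHR1 (3.46 and 5.49), YPK2, which shares that of YMR102C (2.32 and 4.02), and YDR246W-A, which shares that of VHS1 (2.33 and 4.82). HEM14, the protoporphyrinogen oxidase of heme synthesis, had 2.68 at N-lim and 4.43 at Glu-lim from events 12 bp apart inside BUD25. These events also lay before the start of FAA2, the medium-chain acyl-CoA synthetase gene, at 55 bp at N-lim and 67 bp at Glu-lim, although they were not listed for it. The shortest distance listed in either condition was 104 bp. No element was found within 50 bp of that event.

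The highest values in either condition were those of the ribosomal DNA. RDN25-2, RDN5-1 and RDN37-2 shared 1 event per condition, with 7.35 at N-lim and 7.89 at Glu-lim. These 2 events lay 571 bp apart. The ribosomal repeat exists in many copies, so reads of all copies can be assigned to the few in the reference, and the values are uncertain for any single copy.

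AIM38 was listed in both conditions through events 1461 bp apart. At N-lim its event, with 1.36, lay past its 3′ end and inside ARE2, and at Glu-lim its event, with 2.33, lay 367 bp upstream. YLR140W, the remaining gene on both lists, has no coordinates here and shared the events of PUT1.

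Taking places rather than genes, 10 of the 35 N-lim events had a Glu-lim event within 50 bp, at shifts of 2 to 45 bp. The other 25 N-lim events had none, among them the FOX2 event, whose Glu-lim counterpart was 187 bp away, and that of the ribosomal DNA. These recurring and non-recurring events differed in their surroundings. The groups were formed from Pip2 positions, and the Oaf1 libraries and the other conditions had no part in forming them. Sequence and gene annotation are not fully apart from those positions. The event caller lists k-mers with its events, and the deposited list keeps the highest event of a gene within 1200 bp.

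**Figure D4:**
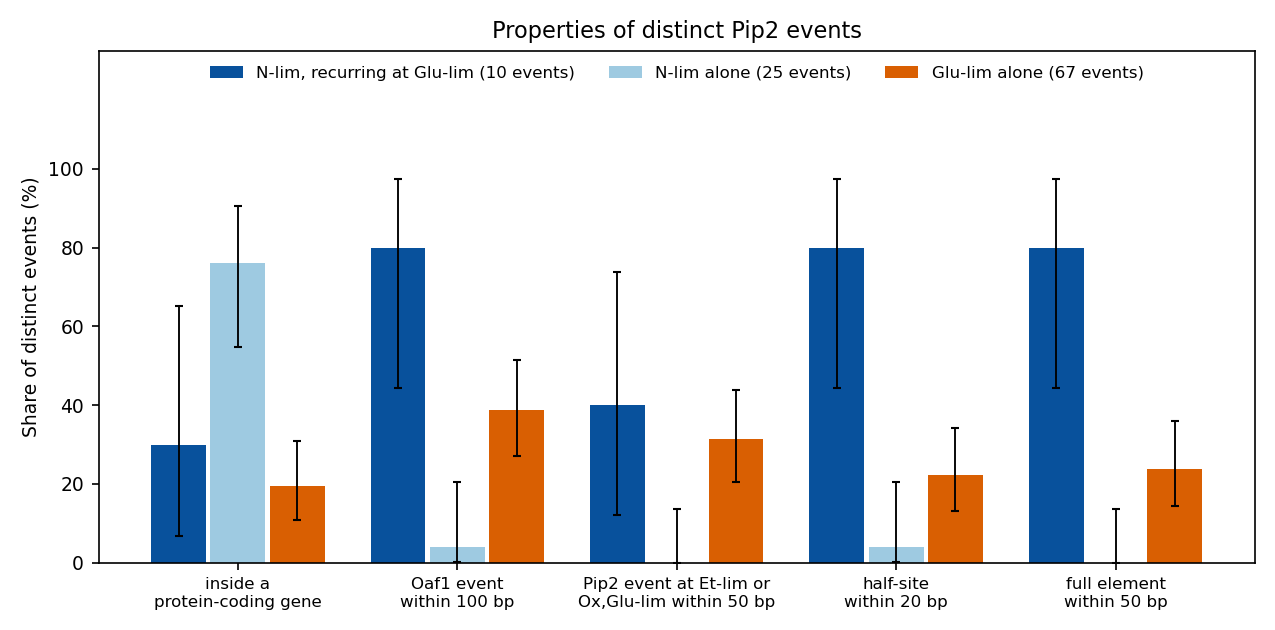
Share of distinct Pip2 events, in percent, with each of 5 properties, for the 10 N-lim events that recur at Glu-lim within 50 bp, the 25 found at N-lim alone and the 67 found at Glu-lim alone. Bars are shares and error bars are exact 95% binomial intervals, which cover counting error only. The N-lim events found alone were inside a protein-coding gene in 76% of cases and next to an Oaf1 event in 4%.

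A half-site was within 20 bp of 8 of the 10 recurring events, 80% (44.4% to 97.5%), and of 1 of the 25 others, 4% (0.101% to 20.4%). Of all upstream windows 3.4% held one, but most of the 25 lay inside protein-coding genes, for which no such share is given. With 1 event of 25, closeness to that share cannot be judged. The full element was within 50 bp of 8 of the 10 and of 0 of the 25, for which the upper limit is 13.7%. Of the 10 recurring events 3 lay inside a protein-coding gene, and of the 25 others 19 did, 76% (54.9% to 90.6%). In the nuclear reference genome, 72.8% of all bases are inside a protein-coding gene. At Glu-lim 16 of 77 events did so, 20.8% (12.4% to 31.5%).

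The same division was present in libraries that had not entered it. An Oaf1 event of the N-lim cultures was within 100 bp of 8 of the 10 recurring events and 1 of the 25 others. No Oaf1 entry was placed past a 3′ end, so the counts were also taken among Pip2 events with an upstream entry. They were 8 of 9 recurring events and 1 of 10 others. A Pip2 event of the 2 remaining conditions, ethanol limitation (Et-lim) or oxygen and glucose limitation (Ox,Glu-lim), was within 50 bp of 4 of the 10 recurring events and 0 of the 25 others. At Glu-lim, of the 67 events without an N-lim counterpart, 26 had an Oaf1 event within 100 bp and 21 had an event of Et-lim or Ox,Glu-lim within 50 bp, 38.8% and 31.3%. The values of the 25 N-lim events were low, with a median of 1.81, against 2.56 for the 10 recurring events, and only the ribosomal DNA event among the 25 was above 3. Position, half-sites and Oaf1 were also counted among low events. Of the events up to a log2(S/N) of 2, 13 of 17 lay inside a protein-coding gene at N-lim, 76.5% (50.1% to 93.2%), and 7 of 25 at Glu-lim, 28% (12.1% to 49.4%). A half-site was within 20 bp of 1 of these 17, 5.88% (0.149% to 28.7%), and 3 of these 25, 12% (2.55% to 31.2%). An Oaf1 event was within 100 bp of 1 of the 17 and 4 of the 25, 5.88% and 16%. Both properties were therefore infrequent among low events of either condition.

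Of the genes listed at N-lim and not at Glu-lim, 9 had an upstream entry, with values from 1.51 to 2.77. HSH49, a splicing factor subunit, had the highest value, 2.77. Its event was also listed for FAA1, the main long-chain acyl-CoA synthetase, from its 3′ end at 1053 bp. It was the one N-lim event without a Glu-lim counterpart that had a half-site within 20 bp and an Oaf1 event within 100 bp, 15 bp away with an Oaf1 log2(S/N) of 2.89. Lower values were found for BOP3 (2.03), the small nucleolar RNA gene SNR11 (1.94), IMD4, an IMP dehydrogenase (1.91), PUP1, a proteasome subunit (1.74), RHO4, a small GTPase (1.62), RPL21B, a ribosomal protein (1.54), and YHR097C (1.51). None of these 7 was listed for Oaf1 at N-lim, where Oaf1 was listed for 2.3% of all genes. With a share that low, the absence from 7 genes tells little. IMD4 shared its event with CYB2, the lactate dehydrogenase of the respiratory chain list, which was measured from its 3′ end. A further 18 genes listed at N-lim only had 3′ end entries, with values from 1.49 to 2.77 and a median of 1.87, and 3 of them shared an event with an upstream gene.

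The coding regions that held N-lim events without a Glu-lim counterpart belonged to 19 genes. No placed entry of either condition lay inside its own gene, so an event was not listed for the gene that held it. None of the 19 was listed for Pip2 through another event, against 155 of all 7125 genes, so this count tells little. The share of all genes that are on a list is not given here, so the next count is not read as high or low. On a gene list were 3 of the 19. These were GDH2, the NAD-dependent glutamate dehydrogenase, under the event listed for PRR2 (1.81), CEM1, a mitochondrial fatty acid synthesis enzyme, under the event for HOR2 (1.77), and ARE2, a sterol acyltransferase, under that for AIM38 (1.36). The other 16 genes were on none of the 13 lists.

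The k-mers that the event caller listed beside the events also differed. At N-lim 28 of 35 events carried one, TTCCC at 13, CCAGT at 10 and TAGCC at 5. At Glu-lim 32 of 77 events carried one, GGCTA at 16, GGCTC at 15 and TTCCC at 1. TAGCC and GGCTA are the same sequence read on opposite strands. Of the 25 N-lim events without a counterpart 22 carried a k-mer, and of the 10 recurring events 6 did. At Glu-lim none of the 10 recurring events carried one.

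At Glu-lim 63 genes had an upstream entry and no N-lim value, with a median of 2.99 and a range of 1.09 to 6.50. Of these, 29 shared an event with another upstream gene. A further 31 genes had 3′ end entries, with a median of 1.91 and a highest value of 4.10, and 16 of them shared the event of an upstream gene. GLT1 and UGA3 shared the highest, 6.50. GLT1 is the glutamate synthase of nitrogen assimilation, and UGA3 is the activator of genes for use of 4-aminobutyrate. Their common intergenic event lay 499 bp from GLT1 and 180 bp from UGA3, over the element printed above. Pip2 was also listed there with 6.06 at Et-lim and 4.41 at Ox,Glu-lim. Oaf1 was listed at GLT1 in both conditions, with 5.23 at N-lim and 8.01 at Glu-lim.

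MDH2, the cytosolic malate dehydrogenase of gluconeogenesis and the glyoxylate cycle, shared an event of 5.62 with the tRNA methyltransferase gene TRM13. Pip2 had 3.71 there at Et-lim and 2.10 at Ox,Glu-lim. No CGGNNNTNA half-site and no full element was within 50 bp, and the CCGNNNTA form was within 20 bp. RGI2, a protein of respiratory growth, had 4.30, and its event lay 117 bp from the N-lim event of VHR1 (3.46), which was also 732 bp before the RGI2 start. MDH3, the peroxisomal malate dehydrogenase, had 4.25 and an element directly under its event. This value is identical in every decimal to its Et-lim value at the same base, as described at the end. IPT1, the last enzyme of complex sphingolipid synthesis, had 3.92 and shared the event with SNF11, a subunit of the SWI/SNF chromatin remodeller. PDR16, a phosphatidylinositol transfer protein, had 3.88 from an event inside ELA1.

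ELO1, the elongase of medium-chain fatty acids, needs separate mention. It was listed with 6.29 at Glu-lim, the next highest upstream value after GLT1 and UGA3, from an event 142 bp upstream. Its deposited value, 6.293326337, has the same 9 decimals as the Oaf1 value at N-lim for the same base, 3.293326337, and is 3 larger on the log2 scale. Of 2148 distinct events compared over all TFs, 3 pairs at 1 position had the same 9 decimals, and the ELO1 pair was the one between different TFs. Of the 60 Pip2 events that carried a k-mer in the 2 conditions, it was the one whose k-mer had no pair of counts after it. The k-mer listed, TTCCC, was otherwise a k-mer of the N-lim events, and it is not in the 41 bases around the event on either strand, while each of the other 59 k-mers is in its own window. The window is shown to make this visible.
ELO1, chrX:68903-68943, plus strand: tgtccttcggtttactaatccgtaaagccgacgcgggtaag

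Pip2 was listed at this base at Et-lim with 1.41, and Oaf1 was not listed for ELO1 at Glu-lim. How the entry arose was not tested. Counts below include the entry unless stated.

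The lists of lipid, peroxisome, nitrogen and regulatory genes gave the following counts, beside 0.758% of all genes at N-lim and 1.74% at Glu-lim. The lists were chosen with earlier results of these data known, so a higher share in a list is a description and no independent support. Of 25 genes of beta-oxidation and fatty acid activation, 4 were listed at N-lim, 16%, and 10 at Glu-lim, 40%. At N-lim these were POX1, FOX2, CAT2 and, from its 3′ end, FAA1. At Glu-lim all 10 entries were upstream, with a median of 3.68. POT1, the thiolase of the last step, had 3.80 and shared its event with the formin gene BNR1. FAA2 had 3.80, with the event inside BUD25 and 121 bp from the N-lim event listed for HEM14 (2.68). IDP3, the peroxisomal isocitrate dehydrogenase that supplies NADPH for unsaturated fatty acids, had 3.57. The carrier CRC1, which brings carnitine esters into mitochondria, had 3.43, shared with RAS1. CTA1, the peroxisomal catalase, had 3.18, and ANT1, the adenine nucleotide carrier of the peroxisome, had 2.99, shared with SCD6. Oaf1 was listed for 10 of the 25 genes at N-lim and 11 at Glu-lim.

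The peroxin list, the genes that build the peroxisome, had 1 of 31 at Glu-lim and 0 at N-lim. The one was PEX5, the receptor for peroxisomal matrix proteins, with 3.85. Of 27 genes of malate, citrate and glyoxylate metabolism, 3 were listed at Glu-lim (MDH2, MDH3 and IDP3) and 0 at N-lim. Of 33 genes of glutamate, glutamine and ammonium assimilation, 1 was listed at N-lim (PUT1) and 3 at Glu-lim (GLT1, UGA3 and PUT1).

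Fatty acid synthesis, elongation and desaturation had 0 of 21 at N-lim and 3 at Glu-lim, or 2 without ELO1. OLE1, the only fatty acid desaturase of yeast, had 2.85, an event shared with SDS23. FAS1, the beta subunit of fatty acid synthase, had 2.05, 810 bp upstream. Single genes of other lipid lists were listed at Glu-lim only: PDR16 of 31 sterol genes, INO1 (3.68), the inositol phosphate synthase, of 29 phospholipid genes, and IPT1 of 20 sphingolipid genes. EEB1 was the 1 gene of 17 for esters and lipid hydrolysis in both conditions. No gene of the hexose transport list was listed in either condition.

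Of 34 genes grouped as regulators of fatty acid, carbon and stress responses, VHR1 was listed at N-lim and 6 at Glu-lim. Besides VHR1 and RGI2 these were ROX1, a repressor of hypoxic genes (2.99), ADR1, an activator of peroxisomal and ethanol-use genes (1.97), HAP4, the activating subunit of the HAP complex of respiratory genes (1.84), and GIS1, a regulator of the diauxic shift (1.79). The events of ADR1, HAP4 and GIS1 lay 998, 1009 and 922 bp upstream. Neither OAF1 nor PIP2 was listed for Pip2 in these conditions.

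Oaf1, the partner, was listed for 2.3% of all genes at N-lim and 3.44% at Glu-lim. Among the genes with an upstream Pip2 entry, 13 of 21 were also listed for Oaf1 at N-lim, 61.9% (38.4% to 81.9%), and 53 of 76 at Glu-lim, 69.7% (58.1% to 79.8%). Of the 63 genes with an upstream Pip2 entry at Glu-lim and none at N-lim, 40 were listed for Oaf1 already at N-lim, 63.5% (50.4% to 75.3%), and 44 at Glu-lim. Without ELO1 these were 39 and 44 of 62. An N-lim Pip2 event listed for a neighbour lay within 1200 bp before the start of 2 of the 63 genes, FAA2 and RGI2. Of the 61 genes with no such event 39 were listed for Oaf1 at N-lim, or 38 of 60 without ELO1. Examples were OLE1, with an Oaf1 log2(S/N) of 5.85 at N-lim and 6.30 at Glu-lim, MDH3, with 4.68 and 4.07, and INO1, with 4.17 and 5.34. Of the 63 genes, 32 had an Oaf1 value in both conditions, with a median difference of 0.60 and a range of -1.22 to 2.77.

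**Figure D5:**
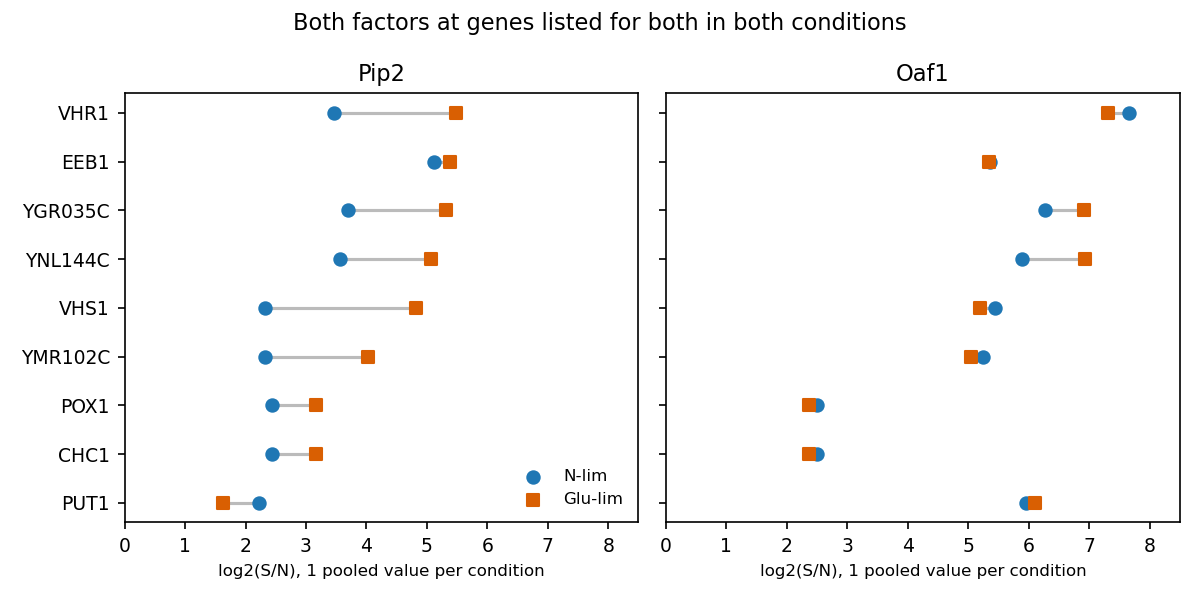
Log2(S/N) of Pip2 (left) and Oaf1 (right) at N-lim (circles) and Glu-lim (squares) for the 9 genes listed for both TFs in both conditions. POX1 and CHC1 share their events, so their points repeat the same values. Each point is 1 pooled value without error. The Pip2 value was higher at Glu-lim in all but PUT1, while the Oaf1 differences ran from -0.34 to 1.04.

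At the shared promoters Pip2 values were mostly higher at Glu-lim and Oaf1 values were not. Among the 12 genes upstream in both conditions, 9 were listed for Oaf1 in both. Over these 9, the median difference, Glu-lim minus N-lim, was 1.51 for Pip2 and -0.14 for Oaf1. VHS1 had 2.33 and 4.82 for Pip2, and 5.44 and 5.20 for Oaf1. VHR1 had 3.46 and 5.49 for Pip2, and 7.66 and 7.32 for Oaf1. YMR102C had 2.32 and 4.02 for Pip2, and 5.24 and 5.05 for Oaf1. YNL144C was higher at Glu-lim for both, by 1.51 for Pip2 and by 1.04 for Oaf1, and so was YGR035C, with 3.70 and 5.31 for Pip2 and 6.27 and 6.92 for Oaf1. EEB1 had Oaf1 values of 5.36 and 5.35, and PUT1 had Oaf1 values of 5.95 and 6.11. The TFs were measured in separate strains and normalized apart, so levels are not compared between them, and the difference of differences has no test.

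CAT2 and FOX2 went a different way. Both had an Oaf1 value at N-lim, 3.21 and 2.57, and none at Glu-lim, where their Pip2 values were 3.92 and 4.49. Since the table holds the highest event above a threshold, this does not measure a loss of Oaf1. Where an Oaf1 event was within 100 bp of a Pip2 event, the median distance was 15 bp over 9 events at N-lim and 28 bp over 33 events at Glu-lim. It was at most 10 bp for 4 of the 9 and 11 of the 33. The 4 at N-lim lay 1 bp from the Pip2 event at PUT1 and at YNL144C, 3 bp at YMR102C and 6 bp at YGR035C.

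Other TFs were also listed at these promoters at Glu-lim. Hap1, a heme-responsive zinc cluster TF that also recognizes CGG triplets, was listed for 38 of the 76 upstream Pip2 genes, 50% (38.3% to 61.7%), against 5.68% of all genes. Ino2 was listed for 28, 36.8%, against 8.86% of all genes, and Ino4 for 24, 31.6%, against 7.51%. By event position only Ino2 and Ino4 changed places in the order. Within 100 bp of the 59 Pip2 events with an upstream entry, Oaf1 had an event at 31, Hap1 at 24, Ino4 at 10 and Ino2 at 6. How often any upstream position lies that close to an event of each TF is not given here, so these counts are not read as high or low. At N-lim Hap1 was listed for 0.73% of all genes, and none of the 35 Pip2 events had a Hap1 event within 100 bp. What part a shared property of these promoters plays in the overlap was not tested.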

How the data were processed

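ChIP-exo libraries of TAP-tagged strains were sequenced by the authors, who aligned the reads to S. cerevisiae R64 with Bowtie2, used SAMtools and bedtools (submitters' processing notes, versions not given in the sources used here), called events with GEM and pooled duplicates. The deposited Pip2 and Oaf1 tables give, for each gene and condition, event position, k-mer, distance and log2(S/N). The log2 values deposited by the authors were read as they stand; in the Pip2 table, where short lines were padded, they are recorded as a score deposited by the authors on that same log2 scale. Position, k-mer and distance are other fields deposited by the authors. The authors' threshold (1) and distance limit (1200 bp) were kept.

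Each deposited distance was compared with R64 gene coordinates (tolerance 3 bp) to place entries. Events at 1 position counted once. Half-sites and elements were searched in reference sequence (Python 3.11.15, NumPy 2.4.6) and shares were given exact 95% binomial intervals (SciPy 1.17.1). The search and placement were tested on simulated data. Duplicates were pooled, so no test was run and depth is unknown. The members and the 13 gene lists were chosen with earlier results of these data known. Named were genes with an upstream entry in both conditions, the 10 highest upstream genes of each condition alone, the 5 highest 3′ end genes, list members, genes sharing an event with these, and the targets the study names. Alternatives were other thresholds, distances, assignments and windows. RDN37-2 and genes without coordinates were not placed. One gene that the naming rule selects is not reported here.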

Additional observations from a re-analysis of the deposited data

How the results depend on the processing

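Of 56 alternatives, 35 left the result the same and 21 moved it. Counts and shares have no sign, so they could not reverse. The median difference between conditions could, and it moved in every setting tried but stayed positive. With only events above 2 counted, the genes listed at N-lim fell from 54 to 30 and distinct N-lim events from 35 to 18. The N-lim share of events at a half-site became 44.4%. With events within 600 bp, 32 genes were listed at N-lim. With each event counted only for the gene at the shortest distance, 35 genes were listed at N-lim, 77 at Glu-lim and 10 in both, and the upstream share at Glu-lim was 51.9%. With upstream entries only, the counts were 21, 76 and 12, and 47.4% of N-lim events had a half-site. In a window of 50 bp on each side, 53.2% of Glu-lim events did. The median difference was 1.56 above a threshold of 1.5 (10 genes), 1.62 above 2 (9 genes), 1.56 within 600 bp (8 genes), 1.95 by shortest distance (4 genes) and 1.87 for events within 20 bp of each other (6 genes). Chosen after seeing the data, an Oaf1 limit of 50 bp gave 27.3% and one of 200 bp gave 57.1% at Glu-lim, and 6 N-lim events recurred within 20 bp. Without the ELO1 entry, also a later choice, 123 genes and 76 events were listed at Glu-lim, 61% of entries were upstream and 27.6% of events had a half-site. The cause of these changes was not tested beyond the smaller number of entries each setting keeps. No paired analysis was possible because the duplicates were pooled before deposit, and for the same reason no replicate could be left out.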

Other observations

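Beside the ELO1 entry, the other pairs of events at 1 position with the same 9 decimals were both Pip2 at Et-lim and Glu-lim. FOX2 had 4.491853096 in both conditions at chrXI base 457344, and MDH3 had 4.254813212 in both at chrIV base 316709. The cause was not tested.

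Among the 31 genes listed at N-lim and not at Glu-lim, 1 was also listed for Pip2 at Et-lim and 1 at Ox,Glu-lim. Among the 101 listed at Glu-lim and not at N-lim, 38 were listed at Et-lim and 10 at Ox,Glu-lim, or 37 and 10 of 100 without ELO1. Of the 23 genes in both, 14 were listed at Et-lim and 8 at Ox,Glu-lim. Over all 7125 genes, 235 were listed for Pip2 in at least 1 of the 4 conditions. The share of all genes at Et-lim or Ox,Glu-lim alone is not given here, so 1 of 31 is not read as high or low.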
